A study of Canis lupus familiaris with 12 samples.

Results

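The genes described here are 10 regulators of the passage from G1 into S phase: the D cyclins CCND1, CCND2 and CCND3, the E cyclins CCNE1 and CCNE2, the kinases CDK2, CDK4 and CDK6, the phosphatase CDC25A and the ubiquitin ligase subunit SKP2. They were chosen by gene symbol, and every probe set that the platform annotation assigns to one of them was used. This gave 14 of the 42924 probe sets tested, or 10 of 15115 genes. CCND1, CCNE1, CDK4 and CDK6 had 2 probe sets each, and the brightest one, with the highest mean over all arrays, stood for the gene.

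Messenger RNA was measured in C2 cells, a canine mast cell tumour line in which a mutated KIT receptor signals without its ligand. Control cultures were collected at 0 h, before any drug, and treated cultures after 12, 24 and 72 h with 100 nM masitinib, a small-molecule inhibitor of KIT and related tyrosine kinases. Each time had 3 Affymetrix Canine Genome 2.0 arrays, so there were 12 arrays in all, and all cultures came from the same line. Untreated cultures at the later times were not analysed here, so an effect of masitinib and an effect of time in culture cannot be told apart.

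D cyclins bind CDK4 and CDK6 in response to growth factor signals and start to phosphorylate the retinoblastoma protein, which releases E2F transcription factors. E2F then drives transcription of the E cyclins, CDC25A and many replication genes. E cyclins activate CDK2, CDC25A removes inhibitory phosphates from CDK2, and SKP2 directs the CDK inhibitor p27 to destruction, so that cells commit to DNA replication. Mast cells divide in response to stem cell factor, the ligand of KIT. The comparisons asked how the transcripts of this control system stood after masitinib, and the arrays did not measure KIT activity itself.

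The values are log2 expression values that the authors had quantile normalized, so each array has nearly the same distribution and a change common to most transcripts is removed. Array medians lay between 5.889 and 5.947, and Pearson's r across probe sets was 0.9952 to 0.9979 between arrays of a time and 0.9689 to 0.9927 between times. Of the 10 measured mast cell markers of 12 listed, KIT, FCER1A, MS4A2, CPA3, HDC, CMA1 and SRGN were each brighter than at least 99.1% of probe sets. The others were lower, with HPGDS at or above 97.4% of probe sets, GATA2 79.3% and FCER1G 57.9%. The summed level of the 10 markers went from 16.3 to 16.34 (log2, range over arrays) at 0 h to 16.96 to 17.05 at 72 h. The summed level of 6 macrophage markers, of which AIF1 was the brightest, went from 10.11 to 10.15 to 10.92 to 11.02, and that of the 3 measured of 5 epithelial markers, mostly EPCAM, lay at 9.10 to 9.20 at 0 h, 9.79 to 10.04 at 12 h, 9.17 to 9.23 at 24 h and 7.81 to 7.91 at 72 h. At 72 h EPCAM (-1.54) and KRT18 (-1.15) fell and CDH1 rose (0.63). The part of these in the results on the G1 regulators was not tested. The poly-A control RNAs, 36 probe sets that the Affymetrix protocol adds in fixed amounts to the RNA, were higher than at 0 h by 0.29, 0.60 and 0.47 at 12, 24 and 72 h. Scaling to them moved the median change of all probe sets to -0.28, -0.57 and -0.44, and changes below are relative to the other transcripts unless that scaling is named. In bulk RNA, fewer cells that make a transcript and less of it per cell cannot be told apart.

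Most of the 10 genes were lower after masitinib. A gene was counted as changed at an adjusted p (limma, Benjamini-Hochberg over all probe sets) under 0.001 and a change of more than 1.5-fold. At 12 h CCND1, CCND2, CCNE1, CCNE2 and CDC25A fell, which is 5 of 10, where 6.30% of all 15115 genes fell. At 24 h CCND1, CCNE1, CCNE2, CDK2, CDK4 and CDC25A fell, which is 6 of 10 against 10.0% of all genes. At 72 h CCND1, CCNE1, CCNE2, CDK4 and CDC25A fell, which is 5 of 10 against 11.0%. With scaling to the poly-A controls 8, 9 and 8 of the 10 fell, the exceptions being CCND3 and CDK6 at 12 and 72 h and CDK6 at 24 h, where 14.3%, 46.8% and 30.7% of all genes fell under that scaling. None of the 10 rose at any of these times (limma), where 4.26%, 8.01% and 8.73% of all genes rose. Poly-A scaling lowers every change against 0 h, so none of the 10 could rise under it, where 1.84%, 2.08% and 3.58% of all genes did. An analysis of variance of the values as deposited also found 0 rises among the 10. At an unadjusted p under 0.05 0, 0 and 2 of the 10 genes were higher at 12, 24 and 72 h, against 19.8%, 25.6% and 25.4% of all genes. The median change of the 10 genes was -0.75, -0.94 and -0.82 on the log2 scale, and that of all genes 0.01, 0.03 and 0.02. All 3 comparisons use the same 0 h arrays, so they are not independent of each other.

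The 3 treated arrays lay wholly below the 3 untreated arrays for 8 of the 10 genes at each of the 3 times, where 22.9%, 24.8% and 26.4% of all genes did so at 12, 24 and 72 h. Arrays lay wholly above the untreated ones for CDK6 at 12 h, for none of the 10 genes at 24 h and for CCND3 and CDK6 at 72 h, against 22.1%, 28.2% and 26.3% of all genes. The genes that lay below at every time were CCND1, CCND2, CCNE1, CCNE2, CDK2, CDK4, CDC25A and SKP2.

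**Figure D1:**
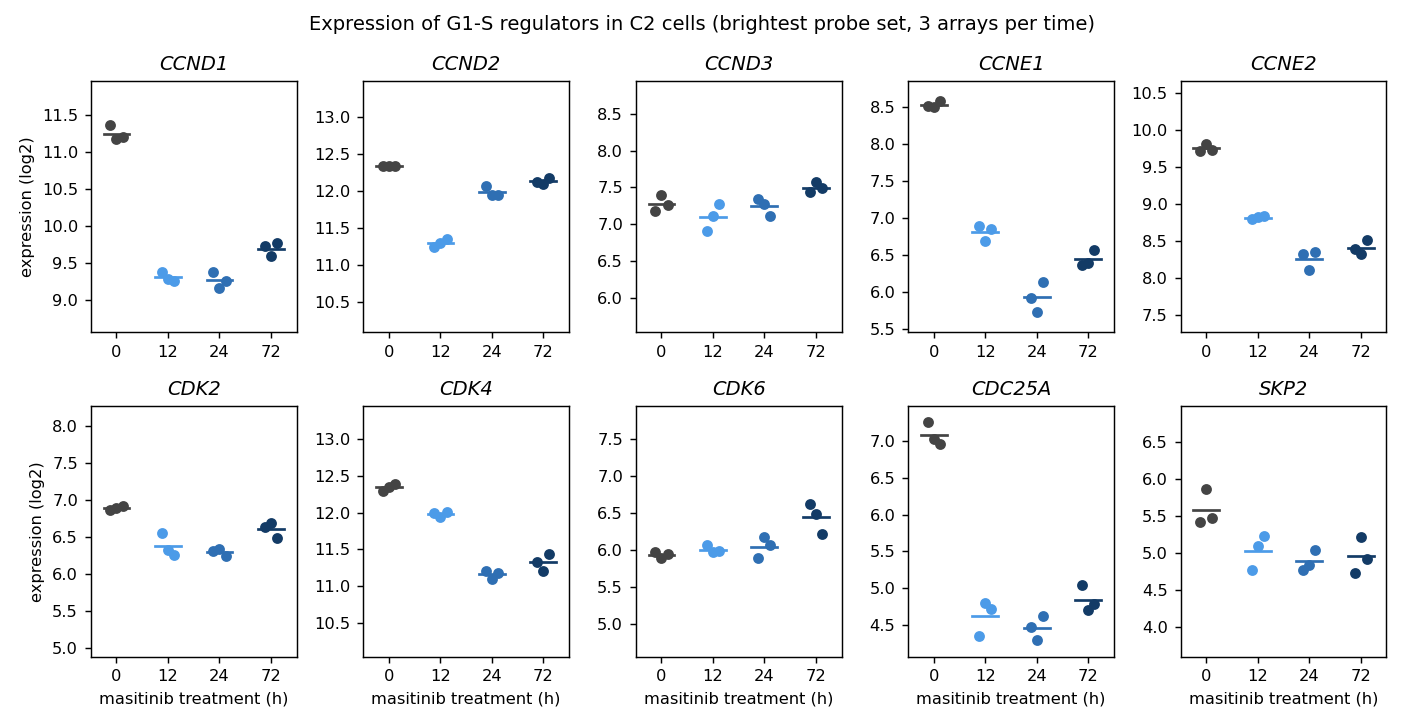
Expression of each gene (log2, vertical axis) against hours of masitinib (horizontal axis, not to scale), with a point for each of the 3 arrays per time and a bar for their mean. The vertical axes all span the same number of log2 units but are centred separately, since levels of different probe sets cannot be compared. CCND1, CCNE1 and CDC25A sit far below their 0 h arrays at all treated times, and CDK4 drops between 12 and 24 h. CCND2 is lowest at 12 h and returns only part of the way, with its 24 and 72 h arrays still below 0 h. With poly-A scaling its rise to 24 h did not pass. CCND3 and CDK6 stay near their 0 h values or above them.

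CCND1, cyclin D1, is the D cyclin most directly tied to growth factor signalling through the MAP kinase cascade. Its brightest probe set read 11.37, 11.18 and 11.20 in the 3 untreated arrays, 9.38, 9.28 and 9.26 at 12 h, 9.38, 9.15 and 9.25 at 24 h and 9.72, 9.58 and 9.77 at 72 h. Every treated array was lower than every untreated one, and the arrays at 72 h lay above those at 12 and 24 h. CCND1 fell by 1.94 at 12 h (SE 0.08 on the log2 scale, as for the other times of this gene), which is 3.85-fold lower (adjusted p = 5.21e-09, limma). It was 3.96-fold lower at 24 h and 2.94-fold lower at 72 h. The 12 h and 24 h levels differed by -0.04 (95% confidence interval -0.22 to 0.13), so nearly all of the fall was present by 12 h.

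CCND2, cyclin D2, serves the same kinases and is the D cyclin often used by blood cells. It read 12.34, 12.34 and 12.34 at 0 h, 11.23, 11.30 and 11.35 at 12 h, 12.06, 11.95 and 11.95 at 24 h and 12.12, 12.10 and 12.18 at 72 h. The 12 h arrays were the lowest without overlap, and the later arrays lay between them and the untreated ones. CCND2 fell by 1.04 at 12 h (SE 0.0586, 2.06-fold lower, adjusted p = 4.75e-08, limma). The differences from 0 h were then -0.35 at 24 h, whose adjusted p of 0.000304 passed but whose 1.28-fold size did not, and -0.21 at 72 h (adjusted p = 0.0127). Measured directly, CCND2 rose by 0.69 from 12 to 24 h (adjusted p = 3.49e-06, limma) and stood 0.84 higher at 72 h than at 12 h (adjusted p = 2.49e-07). With poly-A scaling the rise to 24 h was 0.38 and did not pass (adjusted p = 0.0252), the 72 h level stayed above the 12 h level by 0.66 (adjusted p = 0.00021), and CCND2 fell against 0 h at 24 h (-0.95) and 72 h (-0.68).

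CCND3, cyclin D3, completes the D cyclin family. Its arrays ranged from 7.18 to 7.40 at 0 h, 6.91 to 7.28 at 12 h, 7.11 to 7.35 at 24 h and 7.43 to 7.57 at 72 h. The first 3 groups overlapped, and only the 72 h arrays lay above the untreated ones. Differences from 0 h were -0.18, -0.04 and 0.22 (SE 0.0971) and none passed (lowest adjusted p = 0.0971, limma). The 72 h value turned to -0.25 with poly-A scaling, and the 24 h value to -0.64, which passed.

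The 3 D cyclins thus differed in course. The change of CCND1 minus that of CCND2 was -0.90 at 12 h (95% confidence interval -1.07 to -0.73), -1.63 at 24 h (-1.81 to -1.46) and -1.35 at 72 h (-1.52 to -1.18), so CCND1 had the lower change each time. The change of CCND2 minus that of CCND3 was -0.86 at 12 h (-1.06 to -0.67), -0.31 at 24 h (-0.51 to -0.12) and -0.42 at 72 h (-0.62 to -0.23). These intervals were computed from the difference of the log2 values within each array, which leaves no effect of scaling an array as a whole, and are given without a test.

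CCNE1, cyclin E1, activates CDK2 at the start of S phase. Its brightest probe set read 8.52, 8.50 and 8.58 at 0 h, 6.89, 6.69 and 6.84 at 12 h, 5.92, 5.72 and 6.13 at 24 h and 6.37, 6.39 and 6.56 at 72 h. No arrays of different times overlapped, and the 24 h arrays were the lowest. CCNE1 fell by 1.73 at 12 h (SE 0.0984, 3.31-fold lower, adjusted p = 5.23e-08, limma), was 6.10-fold lower at 24 h and 4.27-fold lower at 72 h. It fell by a further 0.88 between 12 and 24 h (adjusted p = 3.82e-05), and the difference of 0.52 from 24 to 72 h did not pass (adjusted p = 0.0024).

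CCNE2, cyclin E2, has the same partner and is also an E2F target. It read 9.72, 9.82 and 9.74 at 0 h, 8.80, 8.82 and 8.83 at 12 h, 8.32, 8.11 and 8.35 at 24 h and 8.39, 8.32 and 8.52 at 72 h. The untreated arrays were highest and the 12 h arrays next, while the 24 h and 72 h arrays overlapped. CCNE2 was 1.92-fold lower at 12 h (SE 0.0745 of the log2 change, adjusted p = 8.63e-07, limma), 2.82-fold lower at 24 h and 2.55-fold lower at 72 h. The step of -0.56 from 12 to 24 h had an adjusted p of 0.000176 but was under 1.5-fold. Compared within arrays, the change of CCNE1 minus that of CCNE2 was -0.79 at 12 h (-0.96 to -0.62), -1.11 at 24 h (-1.28 to -0.94) and -0.75 at 72 h (-0.92 to -0.58). This order rests on the brightest probe set of CCNE1: with its second probe set the differences were -0.13 (-0.42 to 0.16), 0.24 (-0.053 to 0.53) and 0.19 (-0.098 to 0.48), of the opposite sign at 24 and 72 h.

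CDC25A, the phosphatase that activates CDK2 complexes, had the largest fall of the 10 genes at 12 and 72 h. Poly-A scaling shifts all genes alike and cannot alter this order. At 72 h CDC25A was not tested against CCNE1, whose 95% confidence interval (-2.31 to -1.88) overlapped its own (-2.52 to -1.94). It read 7.25, 7.03 and 6.95 at 0 h, 4.35, 4.80 and 4.73 at 12 h, 4.48, 4.30 and 4.62 at 24 h and 5.05, 4.70 and 4.79 at 72 h. Every treated array lay well below every untreated one, and the 12 h arrays overlapped those of the later times. CDC25A was 5.46-fold lower at 12 h (log2 change -2.45, SE 0.133, adjusted p = 3.63e-08, limma), 6.10-fold lower at 24 h and 4.68-fold lower at 72 h. Its difference between 12 and 24 h was -0.16 (95% confidence interval -0.45 to 0.13). The probe set was at or above 64.9% of all probe sets at 0 h and 29.2%, 26.3% and 32.6% at 12, 24 and 72 h, and it is dropped by a filter on the dimmest 40% over all arrays. Whether it was above background in the treated arrays was not tested, so its folds may understate the fall and its course among the treated times has a limited range.

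**Figure D2:**
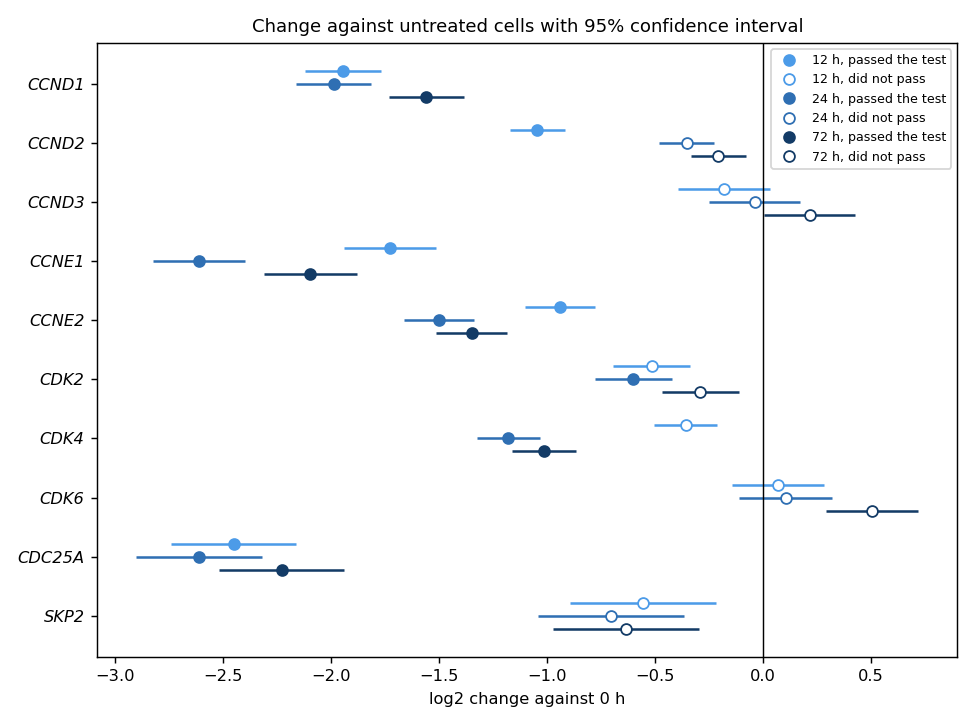
Change of each gene against 0 h (log2, horizontal axis) at 12, 24 and 72 h, with 95% confidence intervals from the limma fit. Filled points passed the test and open points did not. CCND1, CCNE1, CCNE2 and CDC25A passed at all 3 times, CCND2 only at 12 h, CDK2 only at 24 h and CDK4 at 24 and 72 h, while CCND3, CDK6 and SKP2 did not pass, and with poly-A scaling CCND2, CDK2, CDK4 and SKP2 passed at all 3 times and CCND3 at 24 h, and the values of CDK6 at 12 and 24 h and of CCND3 at 72 h turned negative.

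CDK4, the first kinase partner of the D cyclins, read 12.29, 12.34 and 12.39 at 0 h, 12.00, 11.94 and 12.01 at 12 h, 11.21, 11.10 and 11.18 at 24 h and 11.33, 11.22 and 11.44 at 72 h. The 12 h arrays lay below the untreated ones and well above the later ones. Its change was -0.36 at 12 h (SE 0.0673, adjusted p = 0.00119, limma), which did not pass. CDK4 was 2.26-fold lower at 24 h (adjusted p = 1.74e-08) and 2.02-fold lower at 72 h (adjusted p = 6.05e-08). Between 12 and 24 h it fell by 0.82 (adjusted p = 2.55e-06), and it was lower at 72 h than at 12 h by 0.66 (adjusted p = 7.72e-06). With poly-A scaling the 12 h change was -0.65 and passed.

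CDK6, the other D cyclin kinase, ranged from 5.89 to 5.97 at 0 h, 5.97 to 6.07 at 12 h, 5.89 to 6.18 at 24 h and 6.22 to 6.62 at 72 h. The arrays at 72 h were the highest and did not overlap any others. The differences from 0 h were 0.07, 0.11 and 0.51 (SE 0.0985), and at 72 h the adjusted p was 0.000972 (limma) but the size was 1.42-fold, so none passed. With poly-A scaling they were -0.22, -0.50 and 0.03. Within arrays the change of CDK4 minus that of CDK6 was -0.43 at 12 h (-0.77 to -0.088), -1.28 at 24 h (-1.62 to -0.94) and -1.52 at 72 h (-1.86 to -1.18).

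CDK2, the kinase of the E cyclins, read 6.87, 6.90 and 6.92 at 0 h, 6.56, 6.32 and 6.26 at 12 h, 6.32, 6.34 and 6.24 at 24 h and 6.64, 6.69 and 6.49 at 72 h. All treated arrays were below the untreated ones, with 12 h replicate 1 above the other 12 h arrays. CDK2 fell only at 24 h (-0.60, SE 0.0821, 1.51-fold lower, adjusted p = 5.71e-05, limma), just past the required size, and the call was lost without 24 h replicate 3 (-0.57). At 12 h the change of -0.51 had an adjusted p of 0.000332 but was 1.43-fold, and it passed without 12 h replicate 1 (-0.60). At 72 h the change was -0.29 (adjusted p = 0.0126). With poly-A scaling CDK2 also fell at 12 h (-0.81) and 72 h (-0.76).

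SKP2, which recognises p27 for ubiquitination, was the dimmest of the 10 genes and varied most among arrays of a time (residual SD 0.224). It read 5.42, 5.87 and 5.48 at 0 h, 4.77, 5.10 and 5.24 at 12 h, 4.77, 4.84 and 5.04 at 24 h and 4.72, 5.22 and 4.91 at 72 h. Each treated array was below each untreated one, and the treated times overlapped each other. The differences from 0 h of -0.55, -0.70 and -0.63 (SE 0.156) did not pass, with adjusted p of 0.0168, 0.00275 and 0.00511 (limma). With poly-A scaling SKP2 fell at all 3 times (-0.85, -1.30 and -1.11). Its probe set was at or above 45.4% of all probe sets at 0 h and 36.0%, 33.4% and 34.4% at 12, 24 and 72 h. It too is dropped by a filter on the dimmest 40%, and whether it was above background was not tested.

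Between treated times the genes moved in different directions. From 12 to 24 h CCND2 rose and CCNE1 and CDK4 fell, which is 1 rise and 2 falls among 10 genes, where 1.41% of all genes rose and 3.10% fell. With poly-A scaling the rise of CCND2 did not pass and CCNE1, CCNE2 and CDK4 fell, where 0.377% of all genes rose and 8.06% fell. From 24 to 72 h 0 of 10 genes passed in limma and 0 in the analysis of variance, where 1.96% of all genes rose and 1.81% fell. All 10 differences were still above 0 (median 0.28, against 0.00 for all genes). Poly-A scaling raises every difference from 24 to 72 h by the same amount (medians 0.41 and 0.13). It could therefore turn none of them and is no further check. At an unadjusted p under 0.05, 8 of 10 were higher at 72 h than at 24 h and 0 lower, where 15.8% of all genes were higher, and for 8 of 10 the 72 h arrays lay wholly above the 24 h arrays, where 16.9% of all genes did so. Of 19 measured E2F targets, described below, 11 were higher and 4 lower at an unadjusted p under 0.05 (limma), with a median difference of 0.22. Of 6 measured S and M phase cyclins and CDK1, 0 were higher and 3 lower. Among the 10 genes the largest differences were 0.52 for CCNE1, 0.43 for CCND1 and 0.40 for CDK6. The second probe sets of these gave 0.10, 0.38 and 0.045, and there the 24 and 72 h arrays of CCNE1 and CDK6 overlapped. CCNE1 passed without 24 h replicate 3 (0.62), and SKP2, with the smallest difference of 0.07, turned to -0.07 without 72 h replicate 2. From 12 to 72 h CCND2 rose and CDK4 fell, with 4.80% of all genes rising and 5.51% falling.

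**Figure D3:**
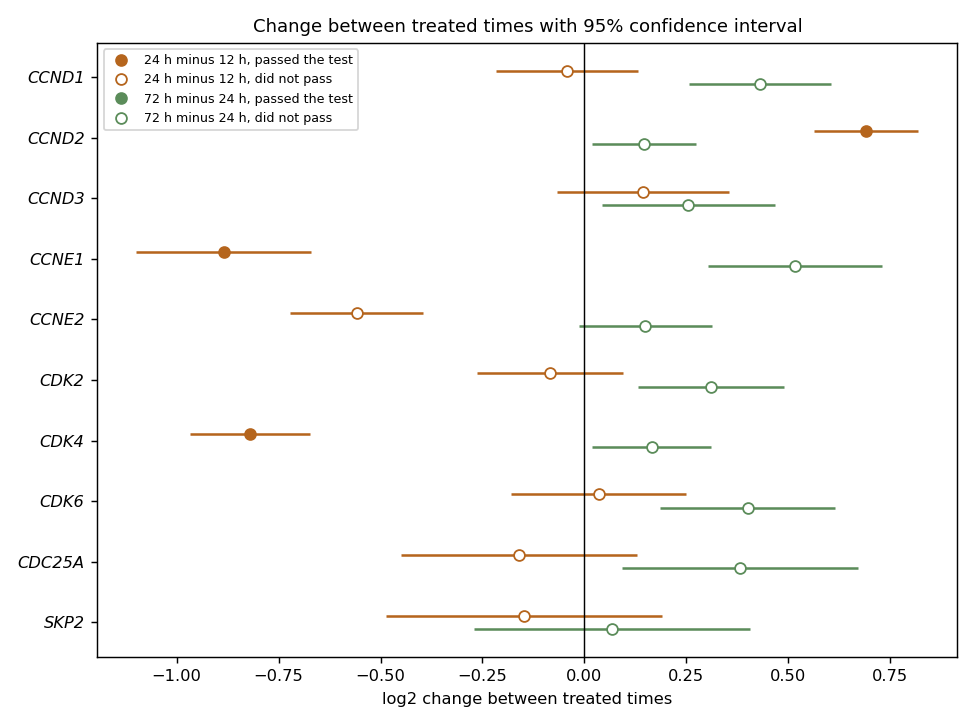
Change of each gene between treated times (log2, horizontal axis), 24 h minus 12 h and 72 h minus 24 h, with 95% confidence intervals from the limma fit and filled points where the test was passed. CCND2 (0.69) lies to the right and CCNE1 (-0.88) and CDK4 (-0.82) to the left from 12 to 24 h, where the rise of CCND2 did not pass with poly-A scaling, and all 10 points lie right of 0 from 24 to 72 h although none passed.

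Genes with a second probe set gave a check on these values. For CCND1 the second probe set fell at 12, 24 and 72 h (-2.04, -2.01 and -1.63), close to the brightest one, and Pearson's r between them over the 12 arrays was 0.997. For CDK4 the second gave -0.35, which did not pass, and falls at 24 and 72 h (-1.05 and -0.86, r = 0.993), and its change of -0.70 from 12 to 24 h passed while its difference of -0.51 from 12 to 72 h did not. For CCNE1 both probe sets fell at all 3 times, but the second showed smaller falls (-1.07, -1.26 and -1.16, r = 0.948). Its step from 12 to 24 h was -0.19 (adjusted p = 0.223, limma), which did not pass, although its 24 h arrays lay below its 12 h arrays. The second probe set of CDK6 was at or above only 0.52% of all probe sets and followed the brightest one little (r = 0.145). It passed at no time. Its 12 and 24 h arrays lay wholly below its untreated ones (-0.17 and -0.12), where the brightest one had 0.07 and 0.11. The suffix _s_at of the brightest probe sets of CCND2, CDK4, CDK6 and CDC25A marks probes that match several transcripts.

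**Figure D4:**
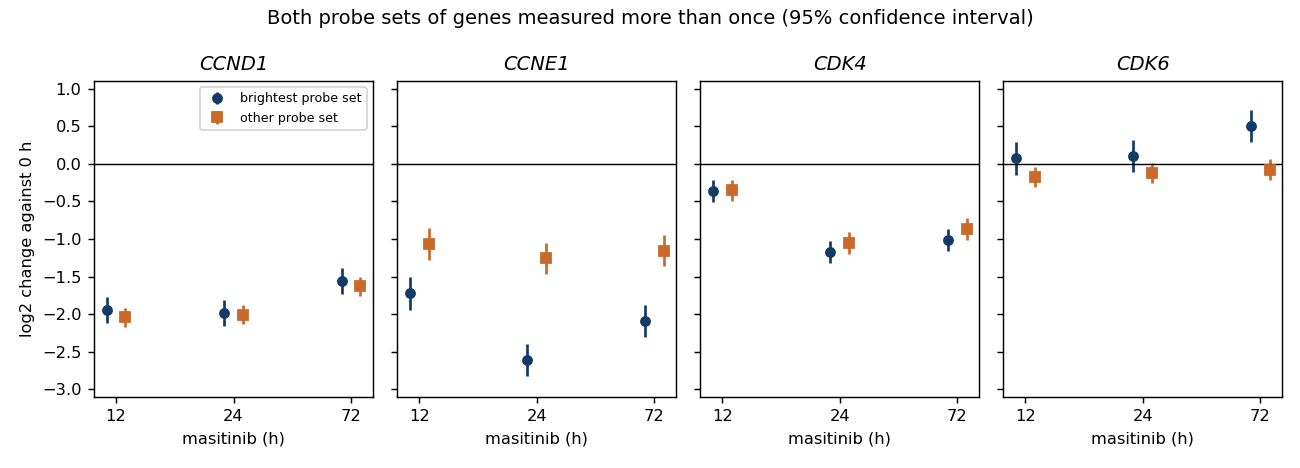
Change against 0 h (log2, vertical axis) at 12, 24 and 72 h in both probe sets of CCND1, CCNE1, CDK4 and CDK6, with 95% confidence intervals from the limma fit. Circles are the brightest probe set and squares the other; the pairs lie together for CCND1 and CDK4, the circles of CCNE1 lie below its squares, most at 24 h (-2.61 and -1.26), and the circle of CDK6 at 72 h (0.51) lies above its square (-0.08).

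Across the 12 arrays, which share their 4 times, the genes followed a few courses. CCND1 and CDC25A had a Pearson's r of 0.984, CCNE1 and CCNE2 of 0.989 and CCNE2 and CDK4 of 0.941, whereas CCND2 and CDK4 had -0.03. Among 3709 other genes with a called change at any time, the closest to CCND1 were SLC25A33, WDR36 and PNPT1 (r of 0.995 to 0.996) and the closest to CDC25A were CCT5, UTP18 and EIF2S2 (0.989 to 0.991). CCNE1 was closest to RPF2, NCL and HNRNPD (each 0.995), and CCNE2 to TFAM, DNMT1 and CDC45 (0.995 to 0.997). CDK4 was closest to HASPIN, VRK1 and CENPM (0.994 to 0.997), of which HASPIN, a mitotic histone kinase, changed by -0.91, -3.19 and -2.77. CDK2 was less closely followed, with GEMIN6, PDCL and MRPL55 at 0.942 to 0.951. CCND2 was closest to HORMAD2, POLR1C and TESPA1 (0.981 to 0.983). HORMAD2 shared its dip and partial return, with changes of -1.01, -0.24 and -0.12.

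Transcripts of the inhibitors that hold cyclin-CDK complexes in check changed in both directions. Of 5 measured CDK inhibitors of 7 listed, the number that rose was 1, 2 and 2 at 12, 24 and 72 h, and the number that fell 0, 2 and 2, with 0 at 12 h also by analysis of variance and 1 lower at an unadjusted p under 0.05. Among all genes 4.26%, 8.01% and 8.73% rose and 6.30%, 10.0% and 11.0% fell at these times. The counts of the lists below are to be read beside the same shares. CDKN1B, which encodes the p27 inhibitor that SKP2 targets, rose by 1.14, 1.05 and 1.46. CDKN1A, encoding p21, changed by 0.13, which did not pass, and rose by 0.63 and 1.56. CDKN2C and CDKN2D, inhibitors of CDK4 and CDK6, read 0.19 and -0.20 at 12 h, which did not pass, and both fell at 24 h (-0.68 and -0.89) and 72 h (-0.73 and -0.70). CDKN2B passed at no time (0.05, 0.07 and 0.04). With poly-A scaling the rises at 24 h did not pass, and the others did.

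Targets of these complexes and their partners were mostly lower where they changed. Of 12 measured genes of 13 in the retinoblastoma and E2F list, the number that rose was 2, 1 and 1 and the number that fell 3, 5 and 3, with a median of -0.31, -0.38 and -0.33. RBL2, the p130 pocket protein of resting cells, rose by 1.15, 1.42 and 1.52, while RBL1, its relative p107, fell (-1.05, -1.41 and -1.39). E2F8, a repressor made in S phase, fell (-1.08, -2.80 and -2.40), and E2F5 fell at 12 and 24 h (-0.98 and -0.91) and stood at -0.01 at 72 h. E2F1 changed by -0.50, -0.66 and -0.49 and passed at 24 h, E2F4 fell by 0.69 at 24 h, TFDP1 fell by 0.93 at 72 h and TFDP2 rose by 0.62 at 12 h. RB1, E2F3, E2F6 and E2F7 passed at no time. Of 19 measured E2F targets of replication, 14, 18 and 19 fell, with medians of -1.001, -2.55 and -2.55, and 17 of the 19 fell further between 12 and 24 h. Among them MYBL2 fell (-1.30, -3.44 and -3.26) and so did TK1 (-0.87, -3.04 and -3.49).

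Other regulators of the same complexes were measured beside them. Of 9 enzymes and adaptors acting on CDKs, 2, 6 and 6 fell, among them CDC25C (-2.39 and -2.23 at 24 and 72 h, with -0.22 at 12 h, which did not pass) and CKS1B, a cofactor of SKP2 (-1.69 and -1.85, with -0.34 at 12 h, which did not pass). CDK7, the CDK-activating kinase, fell (-0.80, -0.75 and -0.998), and PKMYT1, which adds inhibitory phosphates, fell (-0.73, -0.98 and -0.95). CDC25B, the relative of CDC25A, changed by 0.07, -0.64 and -0.70 and passed at no time, and was chosen for mention after its values were seen. Of 15 measured ubiquitin ligase subunits and checkpoint kinases 2, 3 and 3 fell, where 6.30%, 10.0% and 11.0% of all genes did. They included FBXO5, an inhibitor of the anaphase-promoting complex (-1.53, -3.88 and -3.30), and CHEK2 (-1.12 and -0.94 at 24 and 72 h). Of 6 measured S and M phase cyclins and CDK1, 1, 4 and 5 fell, with a median of -0.16 at 12 h and -2.89 and -3.29 later. CDK1 was the one that fell at 12 h (-0.68), and CCNB3 stood at -0.09 at 12 h before it fell (-2.62 and -3.27 at 24 and 72 h).

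Of 24 measured cyclins and CDKs with roles outside the cell cycle engine, those that rose numbered 1, 2 and 2 and those that fell 1 each time, the changed ones being CCNG2, CCNI and CCNC, with medians of -0.06, 0.13 and 0.13. These shares are close to or below those of all genes given above. With poly-A scaling 1 rose and 9 fell at 24 h and 1 rose and 5 fell at 72 h, where 46.8% and 30.7% of all genes fell. Of 18 measured regulators upstream of the D cyclins, those that rose numbered 4, 5 and 6 and those that fell 4, 3 and 2. EGR1, an immediate early gene of MAP kinase signalling, fell (-3.49, -2.54 and -1.53), and FOXO1, a transcription factor held inactive by AKT, rose by 0.91, 1.06 and 1.01. MXD4, a MYC antagonist, rose by 2.02, 1.73 and 0.99, and JUN stood at 0.26 at 12 h, which did not pass, and rose by 0.66 and 2.32. FOS and MYC, named after their values were seen, fell at 12 h (-2.49 and -0.65). At 24 h FOS fell (-1.45) and MYC did not pass (-0.19). At 72 h they stood at 0.31 and 0.42 and did not pass, MYC only for its size (adjusted p = 0.000208, limma). With poly-A scaling the rises in this list were 1 at each time.

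**Figure D5:**
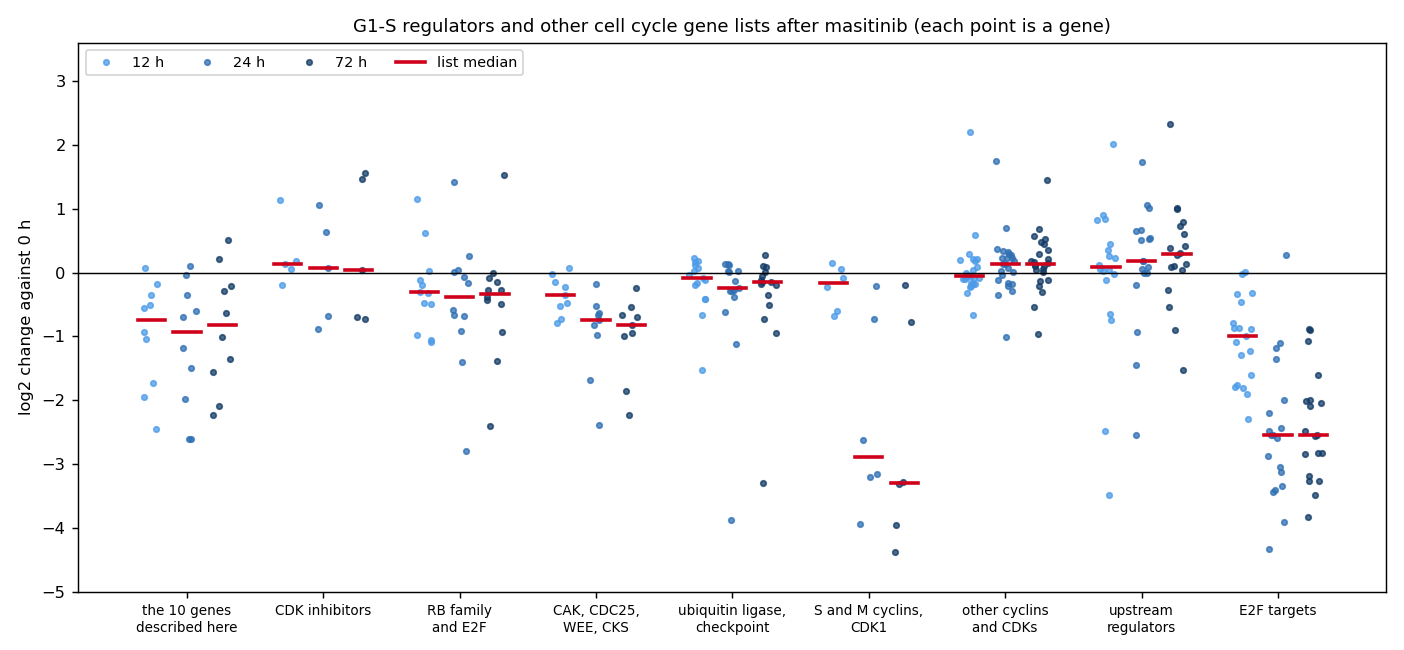
Change against 0 h (log2, vertical axis) of the 10 G1 regulators and of 8 lists of related genes at 12, 24 and 72 h, with a point per gene and a red bar for the list median. The E2F targets lie lower at 24 and 72 h (medians -2.55 and -2.55) than at 12 h (-1.001), the S and M phase genes move after 12 h (from -0.16 to -2.89), and the CDK inhibitors spread to both sides of 0, where with poly-A scaling the rises at 24 h did not pass.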

How the data were processed

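The deposited table gives log2 values for each probe set on each of the 12 arrays. The authors made these values in Partek Genomics Suite by a gcRMA workflow, in which background is corrected, arrays are quantile normalized and probes are summarised by median polish. Partek and RMA are also named in the submitters' processing notes, without versions. Quantile normalization removes a change shared by most transcripts before any test. That the logarithm has base 2 was checked against ratios in a supplement of the study. No genome build was given for the values, and no probe or gene sequence was used here.

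Arrays were grouped by the time in their labels, with 3 per time. The study's methods describe cultures in flasks with 3 replicates per time. Neither they nor the sample titles say whether these were independent experiments, so p-values measure the spread between these arrays, which may be technical. After 111 Affymetrix controls were set apart, 42924 of 43035 probe sets were fitted in R 4.3.3 with limma 3.58.1 (lmFit and eBayes), using 1 coefficient per time. The Benjamini-Hochberg adjustment covered all of them. Calls required 0.001 as the upper limit of the adjusted p together with a change above 1.5-fold, as in the study's methods. Of the probe sets, 29254 have 1 gene symbol, 439 several and 13231 none. Through the Entrez identifier 27680 symbols took the names of assembly UU_Cfam_GSD_1.0, giving 15115 genes, each read by its brightest probe set. Figures were drawn with Python 3.11.15 and matplotlib 3.10.9.

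The 10 genes, the gene lists, the tests and the alternatives were chosen with earlier results of these data known, and list membership comes from general knowledge. The text may name all 10 genes, of each list up to 4 genes with the largest change among those called at 72 h, every gene of the CDK inhibitor and retinoblastoma lists, and for each of the 10 genes with a call the 3 genes with the highest Pearson's r over 12 arrays. Lists are described by counts and medians, with no set test. Precision is limited by the number of arrays. The residual SD had a median of 0.1124 (log2). On simulated data with 42924 probe sets, comparing 72 h with 0 h, 81% of 100 falls of 2-fold and 98% of 100 falls of 4-fold were called, with 0 false calls. The alternatives were a looser adjusted p of 0.05, a 2-fold minimum, analysis of variance with Storey q-values, fits on the arrays compared, dim probe sets left out, other scalings (equal medians, cyclic loess and the poly-A controls), other choices of probe set, a block for the replicate number, and leaving out single arrays.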

Additional observations from a re-analysis of the deposited data

Results flagged for a closer look

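Changes from 0 h differed between treated times for 3 of the 10 genes, by the limma contrast between those times. Among all genes 1.41% rose and 3.10% fell from 12 to 24 h, and 4.80% and 5.51% from 12 to 72 h. From 24 to 72 h 1.96% rose and 1.81% fell. CCND2 was higher by 0.69 at 24 h than at 12 h (adjusted p = 3.49e-06) and higher by 0.84 at 72 h than at 12 h (adjusted p = 2.49e-07), and the change to 24 h was 0.38 and did not pass with poly-A scaling (adjusted p = 0.0252). CCNE1 differed by -0.88 between 24 h and 12 h (adjusted p = 3.82e-05), with -0.19 in its second probe set, which did not pass. CDK4 differed by -0.82 between 24 h and 12 h (adjusted p = 2.55e-06) and by -0.66 between 72 h and 12 h (adjusted p = 7.72e-06), with -0.70 and -0.51 in its second probe set, the latter under 1.5-fold. Each of these was seen in 3 of 3 arrays against 3 of 3, without overlap. No cause was tested.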

How the results depend on the processing

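The 10 genes had 21 called changes over the 6 comparisons of times, and 23 alternatives gave 480 values for them. Of these 469 kept direction and call, 11 no longer passed and 0 changed direction. With a 2-fold minimum the genes called became 0 from 12 to 24 h and 0 from 12 to 72 h. With scaling to the poly-A controls 8 genes were called at 12 h and 8 at 72 h against 0 h. Averaging the probe sets of a gene left 1 gene called from 12 to 72 h, since CDK4 became -0.58, and took CCNE1 to -0.54 from 12 to 24 h. Leaving out each array in turn gave 5 to 6 genes called at each of 12, 24 and 72 h against 0 h, 3 to 4 from 12 to 24 h, 0 to 1 from 24 to 72 h (CCNE1, 0.62, without 24 h replicate 3) and 2 each time from 12 to 72 h. The calls that changed were the gain of CDK2 at 12 h without 12 h replicate 1, its loss at 24 h without 24 h replicate 3, the gain of CDK6 at 72 h (0.62) without 72 h replicate 3 and that of CCNE2 from 12 to 24 h without 24 h replicate 1 or 3. CDC25A and SKP2 were not tested where the dimmest 40% of probe sets were left out.

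In the lists of other genes, poly-A scaling moved the counts called, most of them falls. Under it 14.3%, 46.8% and 30.7% of all genes fell at 12, 24 and 72 h, and 1.84%, 2.08% and 3.58% rose. Called were 2 of 5 CDK inhibitors at 24 h and 10 and 9 of 12 retinoblastoma and E2F genes at 24 and 72 h. So were 5 of 9 CDK-acting enzymes at 12 h and 4, 10 and 9 of 15 ubiquitin ligase and checkpoint genes at 12, 24 and 72 h. The counts were 2 of 6 S and M phase genes at 12 h and 10 and 6 of 24 other cyclins and CDKs at 24 and 72 h (9 and 5 of them lower). Of 18 upstream regulators 5 and 5 were called at 12 and 72 h. Taking the probe set of largest change gave 5 ubiquitin ligase and checkpoint genes at 72 h.

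Values that changed sign had not passed before. Poly-A scaling gave CDK6 -0.22 and -0.50 at 12 and 24 h and -0.27 from 12 to 24 h, and CCND3 -0.25 at 72 h and -0.17 from 12 to 24 h. The probe set of largest change gave CCND1 0.035 from 12 to 24 h, and the mean of probe sets gave CDK6 -0.052 and -0.0089 at 12 and 24 h. Leaving out single arrays spread CCND3 at 24 h over -0.089 to 0.028, and from 12 to 24 h CCND1 over -0.10 to 0.011, CDK2 over -0.14 to 0.0046 and CDK6 over -0.032 to 0.11. It spread SKP2 over -0.068 to 0.18 from 24 to 72 h and -0.22 to 0.034 from 12 to 72 h. The cause was not tested.

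The labels give each time replicates 1 to 3, but same-numbered arrays did not deviate together (median r of -0.056 over 18 pairs, 5 above 0.1), and 6 of 12 arrays were closest to an array of their own number. With the replicate number as a block 7 genes rather than 6 were called at 24 h, SKP2 being added (-0.70), and no call was lost.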
